A study of Mus musculus with 16 samples.

Results

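Interferon-responding cells of the draining lymph node were 140 of the 1625 CD8+ T cells in that library (8.62%, 95% interval 7.30% to 10.1%), out of 5727 cells in the whole series. A cell was counted as interferon-responding when it held at least 1 count of 3 or more of the 5 genes Ifit1, Ifit3, Rsad2, Usp18 and Isg15. The other 1485 lymph node cells held fewer of these genes and served as the comparison. The 5 genes chose the cells, so their values below describe the choice and are not a result. The same holds, as a description without a test, for every other gene measured in these cells, because all genes were measured in the same cells as the 5 that chose them.

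Single-cell RNA sequencing was done on Pmel CD8 T cells, whose transgenic T cell receptor recognises gp100, a protein of melanoma and pigment cells, and which were identified by CD8 and Thy1.1. They came from C57BL/6 mice aged 16 weeks with melanoma-associated vitiligo, day 45 after tumor surgery, and all 4 tissues share this background: draining lymph node, lung, liver and skin. The 4 samples of a tissue differ in their titles only by what looks like a sequencing lane, so each tissue was treated as 1 library without replicates, and how many mice gave the cells is not stated in the labels. No difference was therefore tested, and the intervals, exact at the 95% level, reflect counting error alone.

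Interferons are cytokines that cells release on sensing viral or self nucleic acids and on immune activation. Type I interferons bind the receptor made of Ifnar1 and Ifnar2, the kinases Jak1 and Tyk2 are activated there, and a complex that includes Irf9 binds interferon-stimulated response elements before the antiviral genes. Interferon gamma, which CD8 T cells make themselves, acts through the receptor of Ifngr1 and Ifngr2 and shares many of the same target genes.

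The 5 genes that defined the cells have known parts in this response. Ifit1 and Ifit3 encode proteins that act on viral RNA, Rsad2 encodes viperin, Isg15 encodes a ubiquitin-like modifier, and Usp18 encodes the protease that removes Isg15 from proteins and dampens signaling at the type I receptor. Of the 140 cells, 58 held Ifit1, Ifit3 and Isg15 alone, 32 held these with Usp18, 11 held them with Rsad2, and 25 held all 5. The other 14 cells were spread over 6 combinations of at most 4 cells each. Isg15 was found in 137 of the 140 cells, Ifit3 in 136, Ifit1 in 133, Usp18 in 68 and Rsad2 in 40.

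Promoters of these genes, without Usp18, are printed here because the genes that picked the cells are known targets of interferon. The response element was searched as GAAA, any 2 bases and GAAA again, on both strands of the 300 bases around each start in RefSeq (GRCm38.p6), and the capitals mark each match, which reads as TTTC, any 2 bases and TTTC where it lies on the other strand. The windows run from 170 to 31 bases before the start and are written 5′ to 3′ on the strand of the gene. Ifit1 is on the plus strand at chr19:34640719-34640858, Ifit3 on the plus strand at chr19:34583359-34583498, Rsad2 on the minus strand at chr12:26456483-26456622 and Isg15 on the minus strand at chr4:156200849-156200988. Ifit3b, the near-identical neighbor of Ifit3, is on the plus strand at chr19:34607787-34607926 and has a second match further upstream that the window does not reach.
Ifit1: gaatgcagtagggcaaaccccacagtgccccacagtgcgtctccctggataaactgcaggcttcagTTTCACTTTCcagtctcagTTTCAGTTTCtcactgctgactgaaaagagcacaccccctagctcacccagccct
Ifit3: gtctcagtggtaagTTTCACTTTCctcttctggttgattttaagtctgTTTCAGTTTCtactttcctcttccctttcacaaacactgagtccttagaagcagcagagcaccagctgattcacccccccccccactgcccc
Ifit3b: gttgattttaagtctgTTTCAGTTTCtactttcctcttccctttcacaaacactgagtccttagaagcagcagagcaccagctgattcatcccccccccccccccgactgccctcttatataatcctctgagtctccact
Rsad2: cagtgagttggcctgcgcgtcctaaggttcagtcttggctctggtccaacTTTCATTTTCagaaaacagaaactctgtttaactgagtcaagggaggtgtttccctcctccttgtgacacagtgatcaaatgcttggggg
Isg15: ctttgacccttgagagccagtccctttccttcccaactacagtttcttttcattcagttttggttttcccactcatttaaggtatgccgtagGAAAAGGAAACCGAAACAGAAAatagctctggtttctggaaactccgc
Ifit1 had matches at 104 to 95 and at 85 to 76 bases before its start, and Ifit3 had them at 156 to 147 and at 122 to 113. In Rsad2 the match lay at 120 to 111 bases, and in Isg15 there were 3 overlapping matches between 78 and 57 bases before the start. All 4 of the defining genes with a promoter in the table held the element, against 3.44% of the 32851 promoters in it. Among the promoters of the interferon-induced genes listed below, 30 of 71 held it (42.3%). The element TTCNNNGAA, the core of the element bound on the interferon gamma signal, was in 0 of the 4 promoters, in 17 of the 71 (23.9%) and in 8.30% of all. A match is a description of these letters and not a measured binding site.

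The level of a gene is its share of the pooled counts of a group of cells, per 1000000 counts (CPM). Ifit1 stood at 1183 CPM in the responding cells and 49.2 CPM in the other lymph node cells. Ifit3 stood at 1258 and 46.1 CPM in the same groups, and Isg15 at 1745 and 71.7 CPM. For Usp18 the responding cells had 249 CPM and the other cells 7.07 CPM, and Rsad2 had 161 CPM against 0.975 CPM, the last from 4 counts. Isg15 was also found in 14.3% of the other cells, Ifit3 in 9.97% and Ifit1 in 9.09%, so a single count of them was common outside the chosen cells. As a measure of background, any of 5 B cell genes, which T cells should lack, was found at equal depth in 7.52% of responding and 6.54% of other cells; the part of free RNA in these counts was not tested. The depth of the responding cells was slightly greater, with a median of 2879 counts and 1229.5 genes per cell against 2628 counts and 1168 genes in the other cells. The share of mitochondrial counts had a median of 1.54% in responding and 1.66% in other cells, and none of the 8 lymph node cells called doublets by Scrublet was among the responding cells.

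The cut at 3 genes divides a graded scale, and the numbers near it were large. Lymph node cells with 0, 1, 2, 3, 4 and 5 of the genes numbered 1073, 299, 113, 71, 44 and 25. Just inside the cut, the 71 cells with 3 genes had 798 CPM of Ifit1 and 1066 CPM of Isg15, and just outside it the 113 cells with 2 genes had 377 CPM of Ifit1 and 362 CPM of Isg15. Irf7, which the rule did not read, stood at 385 CPM in the cells with 3 genes and 254 CPM in those with 2.

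A set of 68 other interferon-induced genes was summed in each cell. It held the antiviral effectors, GTPases and ubiquitin-pathway genes of the lists below, without the 5 defining genes. Ifit3b, whose reads cannot be cleanly told apart from those of Ifit3, was kept. It gave 258 of the 42471 lymph node counts of the set, 68 of them in the other cells. The pooled level of the set was 7485, 8485, 11665, 16291, 25690 and 32833 CPM in cells with 0, 1, 2, 3, 4 and 5 of the defining genes. Each step up in the number of defining genes was a step up in this sum. Per cell, the sum had a median of 19210 CPM and a range of 6443 to 63462 CPM in the responding cells, against a median of 7281 CPM and a range of 1032 to 31705 CPM in the other cells. The groups overlapped: 88 of the 140 responding cells (62.9%) lay above the 95th percentile of the other cells, and 26 of the other cells lay above the responding median. Shisa5, Ifitm1 and Ifitm2, picked out after the values were seen, together made up 20.7% of the sum in responding and 38.4% in other cells, and without them the pooled sum was 17632 CPM in responding and 4943 CPM in other cells. The responding cells held 22.5% of all lymph node counts of the 68 genes and 9.47% of all lymph node counts.

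**Figure D1:**
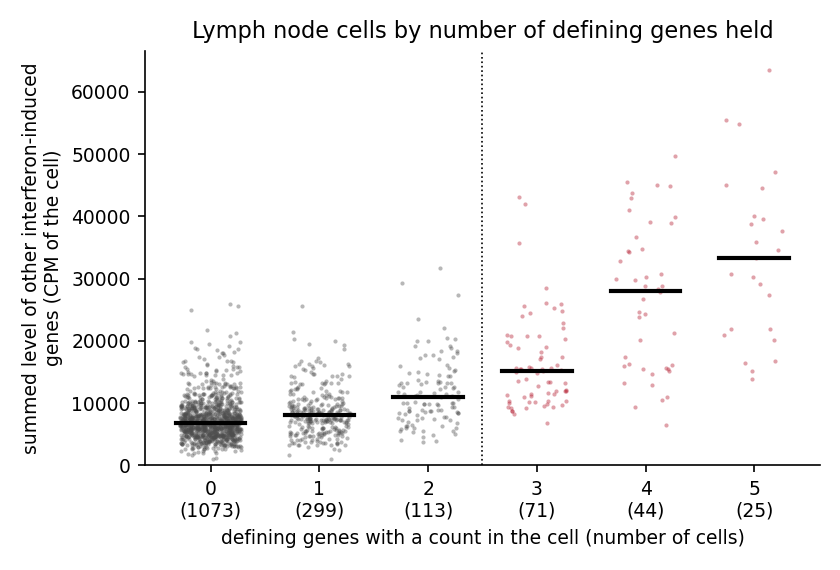
Each point is 1 lymph node cell, placed by how many of the 5 defining genes it held (x axis, cells per class in brackets) and by its summed level of 68 other interferon-induced genes in CPM of the cell (y axis); black bars are medians and the dotted line is the cut. The medians climb from class to class, from 6871 CPM in cells with none to 33259 CPM in cells with all 5, and neighboring classes overlap.

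Single genes followed the same order in most classes. Bst2, the gene of the virus tether tetherin, stood at 154, 216, 449, 798, 1653 and 2418 CPM over cells with 0 to 5 of the defining genes. Irf7, the factor that amplifies interferon production, stood at 69.0, 119, 254, 385, 584 and 1078 CPM. Socs1, a feedback inhibitor of the Jak kinases, was nearly level over the classes up to 3 genes, at 82.3, 78.6, 118 and 103 CPM, and then had 215 CPM with 4 genes and 594 CPM with 5. Cd8a showed no such order, with 1685, 1912, 1909, 2000, 1737 and 1672 CPM. Ifng, the gene of interferon gamma, also showed none, with 180, 160, 148, 160, 132 and 193 CPM.

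Over all genes with at least 100 counts in the lymph node, 4763 without the 5 defining genes, 109 (2.29%) were at least 2-fold higher in the responding cells and 118 (2.48%) at least 2-fold lower. These shares are a background to the lists that follow, and since the cells were chosen by the same response, nothing is read from a list standing above them. The median log2 ratio over all 4763 genes was -0.08, so more of them were lower than higher. The exact share higher by any factor is not given, and the numbers of higher genes in the lists have only this median beside them. The 2 directions differed in depth: among the 1192 genes with at least 500 counts, a limit set after the values were seen, 27 (2.27%) were at least 2-fold higher and 1 (0.0839%), the splicing-related gene Pnisr, was at least 2-fold lower. Of those 27, all but Chmp4b, Cnp, Psme2b and Gzmb were members of the interferon-related lists.

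Antiviral effectors were higher in the responding cells for 29 of the 31 listed genes with enough counts, 21 of them at least 2-fold, with a median log2 ratio of 2.06. The list held 45 genes, of which 34 were in the table, and 26 of the 31 would have passed on the counts of the other cells alone. Bst2 stood at 1358 CPM in the responding cells and 190 CPM in the others, 7.13-fold higher (6.4 to 7.95). Mx1, a dynamin-like GTPase that blocks viruses, was 12.8-fold higher (9.30 to 17.6), and Cmpk2, a nucleotide kinase whose gene neighbors Rsad2, was 20.3-fold higher (13.8 to 30.2). Ifit3b was 26.7-fold higher (20.1 to 35.8), but its reads cannot be cleanly told apart from those of Ifit3, which chose the cells. Mx1, Cmpk2 and Ifit3b had 71, 41 and 68 counts in the other cells. They reached the count limit only with the counts of the responding cells, so their large ratios depend in part on that limit.

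The exonuclease gene Isg20 stood at 512 CPM in responding and 63.6 CPM in other cells, 8.06-fold higher (6.70 to 9.68). Rtp4 was 6.86-fold higher (5.86 to 8.02), and Ifitm3, which blocks viral entry, 6.27-fold (4.72 to 8.30). Ifi27l2a stood at 2888 CPM against 656 CPM, 4.40-fold higher (4.11 to 4.71). Samhd1, which depletes the nucleotides that reverse transcription needs, was 4.0-fold higher (3.55 to 4.51). Other members of the list differed less: Shisa5 was 1.52-fold higher (1.44 to 1.61) and Ifitm1 1.40-fold (1.27 to 1.54). Plscr1 and Ifi27 were the 2 members on the lower side, Ifi27 at 221 CPM in responding and 285 CPM in other cells.

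Sensors of foreign nucleic acid were higher for 11 of 12 genes, 9 at least 2-fold, with a median log2 ratio of 1.99, and 10 of the 12 would have passed on the counts of the other cells alone. Zbp1, a sensor of Z-form nucleic acid, stood at 750 CPM in responding and 115 CPM in other cells, 6.51-fold higher (5.63 to 7.51). The RNA sensor genes Ddx58 (RIG-I) and Dhx58 (LGP2) were 4.50-fold (3.14 to 6.38) and 6.80-fold higher (4.47 to 10.3). Genes of the p200 family of DNA-binding proteins were higher as well, among them Mnda at 11.8-fold (7.89 to 17.6), Pyhin1 at 4.25-fold (3.57 to 5.05) and Mndal at 2.70-fold (2.37 to 3.08). The adaptor Tmem173 (STING) was the exception, at 25.6 CPM in responding and 42.7 CPM in other cells, a ratio of 0.60 with an interval of 0.29 to 1.10 that includes equality. Aim2 and Myd88 also had intervals that include equality.

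Interferon-induced GTPases, which attack the vacuoles of intracellular pathogens, were higher for 9 of 9 genes and at least 2-fold for 8, with a median log2 ratio of 1.78. Ifi47 stood at 785 CPM in responding and 203 CPM in other cells, 3.88-fold higher (3.4 to 4.40). Gbp2 was 4.25-fold higher (3.27 to 5.49), Igtp 3.41-fold (2.83 to 4.08) and Irgm1 3.44-fold (2.72 to 4.33), while Gbp8 was 1.93-fold higher (1.41 to 2.60). Members of the Gbp family share sequence, so how reads were divided between them is uncertain.

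Enzymes of the Isg15 and ubiquitin pathways and PARP enzymes were higher for 13 of 15 genes, 12 at least 2-fold, with a median log2 ratio of 1.59, and 13 of the 15 would have passed on the counts of the other cells alone. The 3 measured enzymes of the chain that attaches Isg15 were higher: the activating enzyme Uba7 2.84-fold (1.95 to 4.05), the conjugating enzyme Ube2l6 6.07-fold (4.46 to 8.21) and the ligase Herc6 4.20-fold (2.96 to 5.89). Trim30a was 5.46-fold higher (4.39 to 6.76) and Rnf213 5.54-fold (3.98 to 7.64). Parp9 and its partner Dtx3l were 4.18-fold (3.02 to 5.71) and 3.34-fold higher (2.38 to 4.6). Trim5 and Trim14 were near equality, with 10 and 9 counts in the responding cells.

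The receptors and kinases upstream of these genes did not share the difference. In the list of interferon receptors and signaling genes, 10 of 17 were higher, 5 at least 2-fold, 1 was at least 2-fold lower, and the median log2 ratio was 0.21. Ifnar1 stood at 55.9 CPM in responding and 70.2 CPM in other cells (ratio 0.80, interval 0.50 to 1.21), Ifnar2 at 97.8 and 98.5 CPM (0.99, 0.71 to 1.37) and Ifngr1 at 88.5 and 110 CPM (0.81, 0.56 to 1.12). Jak1 stood at 240 CPM in responding and 238 CPM in other cells (1.01, 0.81 to 1.23). Of the 7 lower genes, Tyk2 was the 1 at least 2-fold lower, from 5 counts in responding and 100 in other cells, with an interval that includes equality (0.15 to 1.15). Among the higher genes were the transcription factors Irf7 and Irf9, the inhibitor Socs1 and Nmi, a partner of several signaling proteins. Irf7 stood at 568 CPM in responding and 94.1 CPM in other cells, 6.04-fold higher (5.13 to 7.11), and was found in 64.7% of responding and 15.6% of other cells once each cell was thinned to 1965 counts (73.6% and 21.1% unthinned). Socs1 was 2.65-fold higher (2.09 to 3.33) and Irf9 2.04-fold (1.54 to 2.66).

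Genes of antigen presentation on MHC class I were higher for 18 of 19, but by small factors, and 3 reached 2-fold. The median log2 ratio was 0.47. The 3 were the nonclassical class I gene H2-T22 at 2.26-fold (1.98 to 2.58), the immunoproteasome subunit Psmb10 at 2.23-fold (1.92 to 2.57) and the peptide-loading chaperone Tapbp at 2.08-fold (1.81 to 2.40). The immunoproteasome gene Psmb8 was 1.75-fold higher (1.61 to 1.90) and the peptide transporter gene Tap1 1.69-fold (1.39 to 2.05). The class I chains themselves differed least. B2m stood at 8509 CPM in responding and 6976 CPM in other cells, 1.22-fold higher (1.18 to 1.26), and H2-K1 was 1.10-fold higher (1.04 to 1.16). Among surface antigens of the Ly6 family, Ly6a (Sca-1) stood at 2339 CPM in responding and 1074 CPM in other cells, 2.18-fold higher (2.03 to 2.33). Among Schlafen genes, a family with a part in T cell quiescence, Slfn8 was 3.69-fold (2.97 to 4.57) and Slfn1 2.30-fold higher (1.82 to 2.90).

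**Figure D2:**
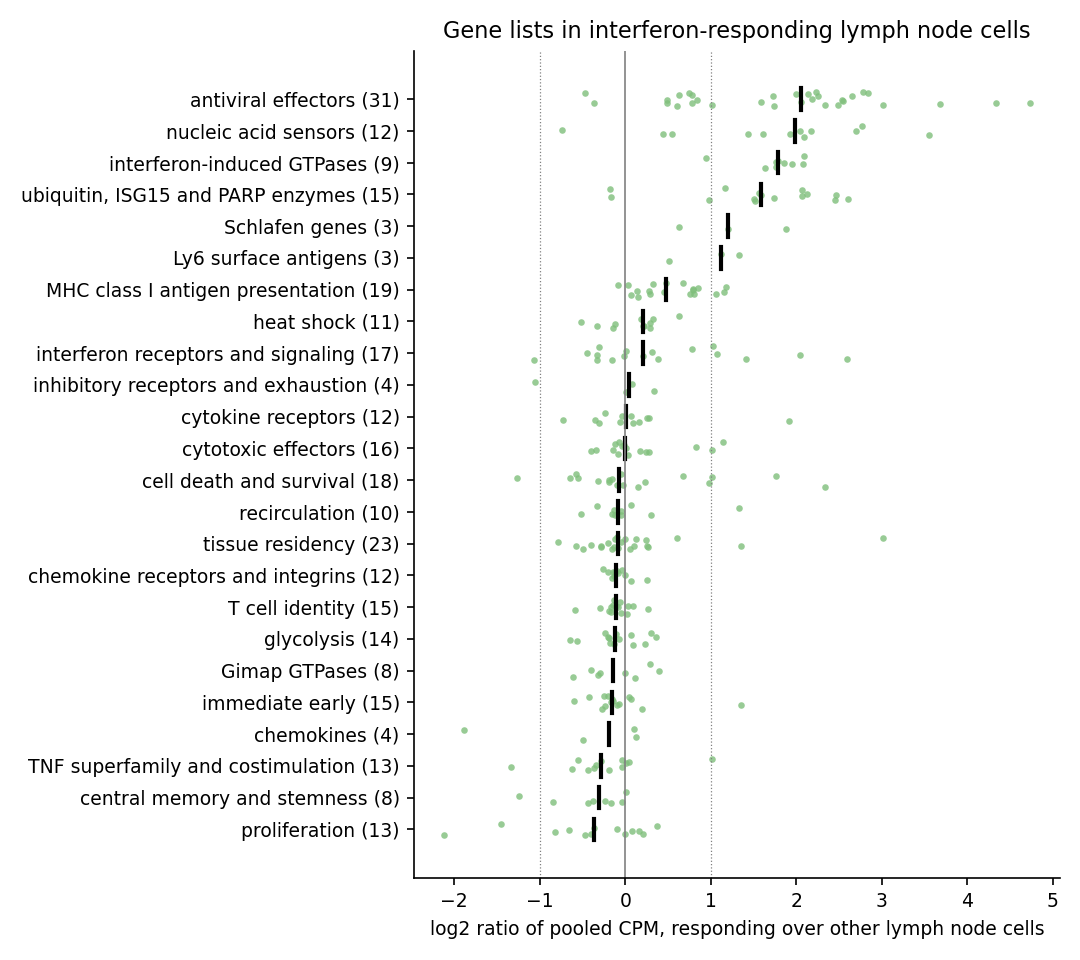
Each point is 1 gene with at least 100 lymph node counts, placed by the log2 ratio of its pooled CPM in responding over other lymph node cells (x axis), 1 row per list with the number of genes in brackets; black bars are medians and dotted lines mark 2-fold. The 4 lists of antiviral effectors, sensors, GTPases and ubiquitin-pathway enzymes have medians from 1.59 to 2.06, and most other lists lie around 0.

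Most lists that describe the state of T cells had medians near that of all genes, -0.08. T cell identity genes had a median log2 ratio of -0.11 over 15 genes, 0 of them past 2-fold in either direction, and the 8 marker genes of CD8 T cells summed to 11106 CPM in responding and 11227 CPM in other cells. Tissue residency genes had a median of -0.09 over 23 genes, recirculation genes -0.09 over 10, chemokine receptors and integrins -0.11 over 12, and ribosomal protein genes -0.11 over 87. The central memory and stemness list had -0.30 over 8 genes, 7 of them lower and 1, Slamf6, at least 2-fold lower. Its median was 0.049, on the other side of equality, without the 1020 lymph node cells that held 3 or more proliferation genes. The 6 marker genes of central memory cells summed to 466 CPM in responding and 581 CPM in other cells (ratio 0.80, 0.69 to 0.93). Markers of circulating effector memory cells, 5 of 6 in the table, summed to 1399.9 CPM in responding and 982 CPM in other cells (1.42, 1.31 to 1.55). Gzma gave 490 of their 601 counts in responding cells, so this ratio is mostly that of Gzma, described below. The sum without Gzma is not given, and no shift of the other markers is read from it. Itgae, the integrin that binds E-cadherin, stood at 352 CPM in responding and 376 CPM in other cells (ratio 0.94, interval 0.79 to 1.11), and the residency receptor Cxcr6 at 1828 and 1984 CPM (0.92, 0.86 to 0.99). Ifng stood at 156 CPM in responding and 173 CPM in other cells (0.90, 0.69 to 1.16).

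Within these lists a few genes stood apart on the higher side. Cd69, which holds lymphocytes in tissue by taking the egress receptor S1pr1 off the surface, stood at 212 CPM in responding and 82.6 CPM in other cells, 2.57-fold higher (2.01 to 3.24). At equal depth it was found in 28.6% of responding cells (21.1% to 37.1%) and 11.9% of other cells (10.2% to 13.7%), and in 36.4% and 15.7% unthinned. Gzmb, the gene of the cytotoxic protease granzyme B, stood at 1747 CPM in responding and 794 CPM in other cells, 2.20-fold higher (2.03 to 2.38). At equal depth it was found in 70.7% of responding (62.2% to 78.3%) and 51.0% of other cells (48.3% to 53.7%), and in 75% and 55.0% unthinned. Over cells with 0 to 5 of the defining genes Gzmb stood at 692, 1039, 1055, 1559, 1771 and 2252 CPM, in the same order as the interferon-induced genes. The list of cytotoxic genes was divided, with 8 of 16 higher, 8 lower and a median of -0.00 on the log2 scale. Gzmb and Tnfsf10 were the 2 at least 2-fold higher, and Nkg7 stood at 3578 CPM in responding and 3559 CPM in other cells. Gzma stood at 1141 CPM in responding and 645 CPM in other cells, with up to 99 counts in a single responding cell. It was found in 22.6% of responding and 19.2% of other cells at equal depth, and its log2 ratio of 0.82 was 0.21 when the cells were chosen after thinning.

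Ligands and receptors of immune signaling held some of the remaining differences. Tnfsf10 (TRAIL), a death ligand, was 2.02-fold higher (1.45 to 2.77), and Il12rb1, a subunit of the receptor for interleukin-12, was 3.77-fold higher (2.39 to 5.83) from 30 counts in responding and 76 in other cells. Il12rb1 reached the count limit only with the counts of the responding cells, so its ratio depends in part on that limit. Daxx, a regulator of cell death and chromatin, was 3.40-fold higher (2.54 to 4.51) and Casp8 1.97-fold (1.40 to 2.72). The interferon-induced chemokine gene Cxcl10 had 37 counts in 10 responding cells, 7.14% of them, and 23 counts in 0.673% of the other cells, too few to enter the lists. On the lower side the chemokine gene Ccl3 had 4 counts in responding and 141 in other cells (ratio 0.27, 0.07 to 0.71), Tnfsf8 had 9 and 217 (0.40, 0.18 to 0.77), and the memory-associated receptor gene Slamf6 had 6 and 136 (0.42, 0.15 to 0.94), each from fewer than 10 counts in responding cells. Ccl1 had 0 counts in responding and 66 in other cells, which is at least 2.30-fold lower with 3 counts set over the responding cells, and 38 of the 66 came from a single cell. Of the 217 counts of Tnfsf8, 42 came from a single cell too.

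Proliferation genes had a median log2 ratio of -0.36 over 13 genes, with 0 at least 2-fold higher and 2 at least 2-fold lower. The 2 were Rrm2, a subunit of ribonucleotide reductase, with 4 counts in responding and 105 in other cells, and the replication factor gene listed as 2810417H13Rik, with 3 and 125. Stmn1 stood at 58.2 CPM in responding and 91.9 CPM in other cells (ratio 0.63, 0.40 to 0.95). At least 2 of 6 cycling markers were found in 4 of 140 responding and 34 of 1485 other cells. Without these 38 cells, a choice made after the values were seen, the median log2 ratio of the proliferation list was 0.12, on the other side of equality. The medians of antiviral effectors, sensors, GTPases and ubiquitin-pathway enzymes without them were 2.08, 1.91, 1.79 and 1.57.

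Markers of several other cell types were low in both groups, though not of all. B cell genes summed to 39.6 CPM in responding and 39.7 CPM in other cells over the 5 of 6 genes in the table, and myeloid genes to 25.6 and 24.9 CPM over 5 of 6. Of the markers of plasmacytoid dendritic cells, which make type I interferon, 3 of 5 were in the table. Bst2, itself interferon-induced, gave 583 of their 592 counts in responding and 781 of their 815 in other cells, and at equal depth Tcf4 was found in 0.752% of responding and 0.751% of other cells. Regulatory T cell genes summed to 3 counts in responding and 80 in other cells over 2 of 4 genes. Of conventional dendritic cell genes, H2-Aa and Cd74 were in the table and summed to 203 CPM in responding and 243 CPM in other cells. At equal depth either was found in 22.6% of responding and 22.2% of other cells. Xbp1, the only plasma cell marker in the table, stood at 93.2 and 68.5 CPM (ratio 1.36, 0.95 to 1.90). Trdc, a marker of gamma-delta T cells, stood at 95.5 and 79.9 CPM (1.19, 0.84 to 1.66). NK cell genes had 1 count in responding and 43 in other cells, and Krt10 of keratinocytes 1 and 45.

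Outside the lists, the 12 genes with the interval farthest from equality in each direction are named. On the higher side these were Gbp6.1, Trafd1, BC094916, Plac8, Phf11c, Pml, Nt5c3, Mitd1, Samd9l, Aida, Ppa1 and BC147527. Among them Plac8, Pml, BC147527 and Aida had 69, 69, 86 and 95 counts in the other cells. These genes reached the count limit only with the counts of the responding cells. Gbp6.1, as the table writes it, stood at 189 CPM in responding and 27.3 CPM in other cells, 6.91-fold higher (5.13 to 9.28). Trafd1, an inhibitor of innate signaling, was 5.87-fold higher (4.29 to 7.97). Pml, the organizer of nuclear bodies that also hold the listed Sp100, was 4.85-fold higher (3.13 to 7.38), and Sp100 itself 2.02-fold (1.78 to 2.30). Samd9l stood at 205 CPM against 73.8 CPM, 2.78-fold higher (2.16 to 3.53). Plac8 was 5.82-fold higher (3.87 to 8.66) in pooled counts and was found in 8.27% of responding and 2.10% of other cells at equal depth.

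On the lower side the 12 genes were Pnisr, Siva1, Brap, Akap8l, Clpp, Kansl1, Rbm6, Kif21b, Gga1, Atxn7l3b, Oser1 and Arf3. Their intervals came close to equality, with upper bounds from 0.69 for Pnisr to 0.82 for Arf3, and they had 6 to 37 counts in the responding cells. In 7 of the 12 there were fewer than 10 counts, too few to read a direction. Pnisr stood at 72.2 CPM in responding and 149 CPM in other cells, a ratio of 0.48 (0.33 to 0.69). Outside the naming rule and picked after their values were seen, the histone gene Hist1h2ap had 4 counts in responding and 308 in other cells, 112 of them in a single cell, Izumo1r had 5 and 200, and Nup54 had 1 and 100. The table held 12 promoters of 10 of the genes named on the higher side and 14 promoters of 10 of the 12 on the lower side, as a gene can have several starts. The response element was found in 2 of these 12 and in 0 of these 14.

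The same rule found fewer cells in each of the other tissues. It was met by 22 of 556 liver cells (3.96%, 2.5% to 5.93%), 46 of 2322 lung cells (1.98%, 1.45% to 2.63%) and 9 of 1224 skin cells (0.735%, 0.337% to 1.39%), against the 8.62% of lymph node cells. Lung and liver cells were deeper, so each cell of the 4 tissues was also thinned to 1886 counts, which left out 131 lymph node, 27 liver, 273 lung and 141 skin cells. The share was then 6.76% in lymph node, 1.89% in liver, 1.07% in lung and 0.646% in skin. The order of the tissues was the same, the lymph node interval (5.54% to 8.15%) lay above those of the other tissues, and the intervals of liver and lung overlapped. Lymph node cells were dissociated mechanically and the other tissues were digested with enzymes, lung and liver cells passed a Percoll gradient, and skin and lymph node columns carry an added 2 in their names, so tissue and handling cannot be told apart. Of the cell barcodes, 19 occurred in 2 or more tissues, 1 of them among the responding lymph node cells.

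**Figure D3:**
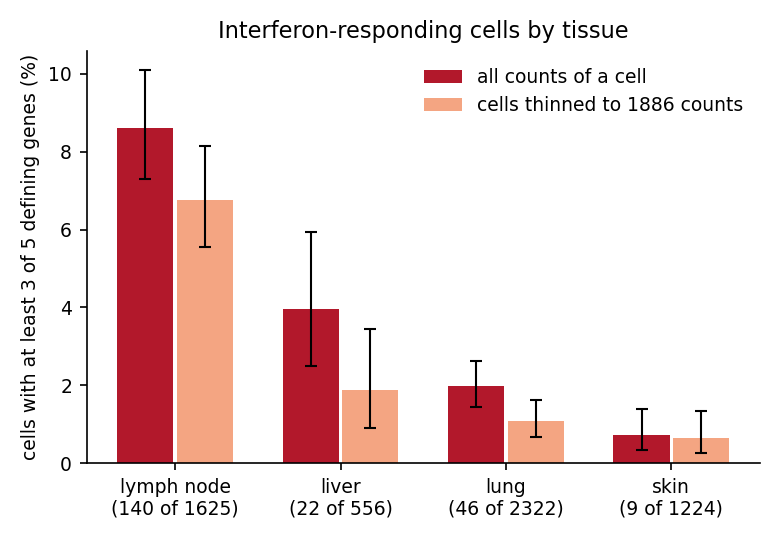
Bars give the share of cells in each tissue (x axis, responding of all cells in brackets) with at least 3 of the 5 defining genes, in percent (y axis), from all counts (red) and after thinning to 1886 counts (orange); whiskers are exact 95% binomial intervals. The lymph node bar is the highest in both, at 8.62% and 6.76%, and the skin bar the lowest.

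The defining genes chose the cells in the other tissues too, so their levels there describe the choice and are not a result. Ifit1 stood at 1183 CPM in responding cells of lymph node, 1046 CPM in those of liver, 633 CPM in those of lung and 1943 CPM in the 9 of skin. Irf7, not part of the rule, stood at 568, 446, 331 and 518 CPM in the same order of tissues, the last from 12 counts, against 94.1, 75.9, 76.0 and 46.2 CPM in the other cells of lymph node, liver, lung and skin. Ifng was higher in responding cells of liver, at 837 CPM (639 to 1077) against 361 CPM (335 to 390) in other liver cells. It stood at 337 CPM in responding and 397 CPM in other lung cells, at 2289 and 2245 CPM in skin, and at 156 and 173 CPM in lymph node.

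In lung, 197 of 5460 genes (3.61%) were at least 2-fold higher and 660 (12.1%) at least 2-fold lower in the 46 responding cells. In liver the numbers were 75 of 2101 (3.57%) and 196 (9.33%) in the 22 responding cells. With so few responding cells, a gene near the count limit can be called 2-fold lower from very few counts. In lymph node, 1 of 1192 genes (0.0839%) was 2-fold lower with at least 500 counts. Numbers at that limit are not given for lung and liver, and no broad lowering is read from these shares. The median log2 ratio of antiviral effectors was 1.62 in lung over 27 genes and 0.99 in liver over 17, beside 2.06 in lymph node. Sensors had 1.73 in lung and 1.58 in liver, GTPases 1.87 and 2.29, the last over 3 genes of which 2 would have passed on the other cells alone, and MHC class I genes 0.60 and 0.83. Isg20 was 13.2-fold (9.0 to 19.0) higher in responding lung cells and 13.4-fold (6.67 to 25.8) in responding liver cells, beside 8.06-fold in lymph node. Gzmb was 1.76-fold (1.58 to 1.96) higher in lung and 1.27-fold (1.07 to 1.5) in liver. Cd69 stood at 114 CPM in responding and 127 CPM in other lung cells (ratio 0.90, 0.55 to 1.39), and at 195 and 92.6 CPM in liver (2.11, 1.13 to 3.63). Whether the Cd69 ratio differs between tissues was not tested, as each tissue is 1 library. Proliferation genes had medians of -0.88 in lung and -1.0 in liver, with 1 count of Stmn1 in responding and 1441 in other lung cells.

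**Figure D4:**
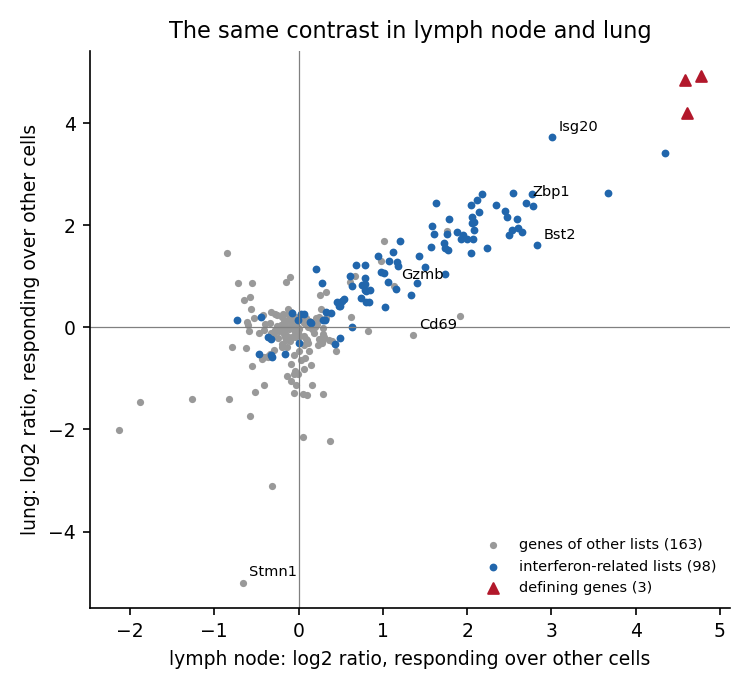
Each point is a listed gene with at least 100 counts in both tissues, placed by its log2 ratio of responding over other cells in lymph node (x axis) and in lung (y axis); blue points are the 98 genes of interferon-related lists, gray points 163 genes of other lists and red triangles 3 defining genes. Genes without a count in the responding lung cells, all on the lower side in lung, are left out. Of the 98 genes, 85 were higher in both tissues and 49 at least 2-fold in both, while Cd69 lies to the right of 0 in lymph node and just below 0 in lung. The same rule chose the cells in both tissues, and the matching numbers for the gray points are not given. Nothing is therefore read from how many blue points were higher in both.

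Most single interferon-induced genes were also higher in the lymph node as a whole than in each other tissue, while their sum was higher than in skin and lower than in lung and liver. Over skin, the median log2 ratio of lymph node was 1.33 with all cells and 1.12 without the responding cells of both tissues, over 57 of the 68 genes with enough counts, beside a median of 0.16 for all 6226 genes in both settings. Over lung it was 0.91 with all cells and 0.68 without them (62 genes), beside 0.33 for all 6985 genes, and over liver 0.76 and 0.59 (57 genes), beside 0.35 for all 5597 genes.

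With all cells, 52 of the 57 genes (91.2%) were higher in lymph node than in skin, against 62.8% of all genes, 55 of 62 (88.7%) than in lung, against 73.4%, and 48 of 57 (84.2%) than in liver, against 73.8%. Without the responding cells, the numbers were 52 of 57 over skin (91.2%, against 62.8% of all genes), 48 of 62 over lung (77.4%, against 73.3%) and 45 of 57 over liver (78.9%, against 73.4%). The shares over lung and liver were then near those of all genes.

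The summed level of the 68 genes was 9371 CPM in lymph node and 16782 CPM in lung, a ratio of 0.56, and 14643 CPM in liver, a ratio of 0.64, while over skin, at 5169 CPM, the ratio was 1.81. Without the responding cells the ratios were 0.48 over lung, 0.56 over liver and 1.6 over skin. Ifitm1 gave most of the lung sum, at 844 CPM in lymph node and 10703 CPM in lung, and stood at 8324 CPM in liver. Without Shisa5, Ifitm1 and Ifitm2, the genes left out of the sum above, the ratio of lymph node was 1.45 over lung, 1.37 over liver and 2.28 over skin with all cells, and 1.22, 1.18 and 1.91 without the responding cells. For Bst2 the ratio of lymph node over lung was 1.06 (0.99 to 1.13) with all cells, an interval that includes equality, and 0.70 (0.64 to 0.76) without the responding cells. Over liver it was 1.02 (0.92 to 1.12) and 0.72 (0.64 to 0.81).

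**Figure D5:**
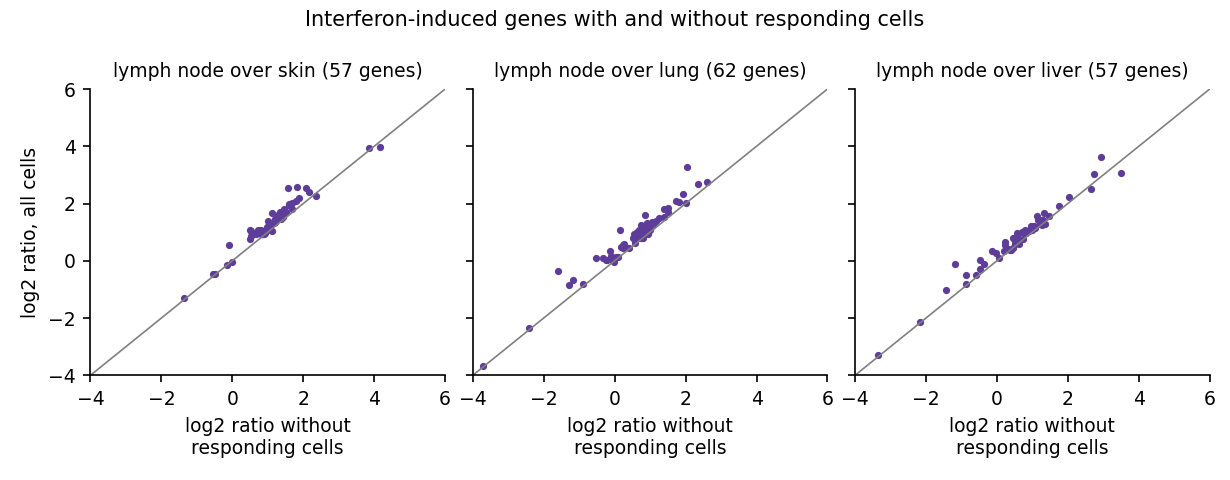
Each point is 1 interferon-induced gene outside the rule, placed by the log2 ratio of lymph node over skin, lung or liver (panels from left to right) without the responding cells (x axis) and with all cells (y axis); the line marks equal values. Most points lie above 0 on both axes and on or slightly above the line, with medians of 1.33, 0.91 and 0.76 for all cells.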

How the data were processed

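Single-cell RNA sequencing of 16 samples from 4 tissues was deposited by the authors as a single matrix of raw counts for 9223 genes in 5727 cells. The submitters' processing notes name Bowtie, RSEM and mm10, without versions. The sources used here do not state how cells and genes were filtered or whether unique molecular identifiers were counted. Column names give the tissue, with 0 columns left over, and not the lane, so the 4 samples of a tissue were pooled. The lymph node held 4532333 counts, skin 3292210, lung 8072278 and liver 1928185. Every cell had at least 753 counts, 494 genes and at most 4.99% mitochondrial counts, and none was removed.

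Counts were summed over responding and other cells and divided by the group's total to give CPM. Ratios have exact 95% intervals for 2 Poisson counts and shares have Clopper-Pearson intervals, which leave out differences between mice and libraries. A gene with 0 counts in a group was set at 3 counts over that group. Genes entered lists and totals if they had 100 counts or more in the tissue, and a ratio of at least 2 or at most 0.5 was counted as past 2-fold. Other tissues were compared within themselves where at least 20 cells met the rule. Shares at equal depth came from cells thinned to 1965 counts, the 10th percentile of the lymph node, with 133 of 140 responding and 1331 of 1485 other cells deep enough.

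The 24 lists hold 469 entries, of which 414 matched the table, 7 of them through an older symbol; ribosomal protein genes were taken by name. A gene can be in several lists. Any list or marker gene could be named, and outside the lists 12 genes on each side, ranked by how far their interval stayed from equality, among those with a count in at least 10% of cells of the higher group, without ribosomal, mitochondrial, receptor segment and predicted genes. The rule, the lists and the make-up of the 68-gene set were chosen with earlier results of these data known. Doublets were called with Scrublet in scanpy 1.11.5 at an expected rate of 0.05 per tissue, 62 in all, and were kept. The calculation of ratios and intervals was checked on simulated pooled counts, without differences between cells and without a choice of cells by genes. Promoters came from RefSeq. Python 3.11.15, numpy 2.4.6, scipy 1.17.1 and pandas 2.3.3 were used.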

Additional observations from a re-analysis of the deposited data

How the results depend on the processing

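With 1 library per tissue no sample could be left out. No paired analysis was possible because the columns carry no lane number and no test was made. Holding at least 2 or at least 4 of the defining genes gave 253 (15.6%) or 69 (4.25%) responding lymph node cells, choosing after thinning to 1965 counts gave 98 (6.69%), and thinning all tissues to 1886 counts gave 6.76% in lymph node, 1.89% in liver and 1.07% in lung.

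The number of genes past 2-fold depended on the settings, most of all on the lower side. Against 109 higher and 118 lower genes, it was 29 lower with at least 2 genes held, 353 lower with at least 4, 216 lower when chosen after thinning and 58 lower against cells with none of the 5 genes. With a summed count of at least 50 it was 181 higher and 381 lower, with at least 200 it was 63 and 14, with no filter 598 and 729, and at 1.5-fold 283 and 444. Without the 1020 cells, 90 of them responding, that held 3 or more proliferation genes, it was 61 and 58. At least 2 of the 6 cycling markers were found in 38 lymph node cells, so most of the 1020 did not hold 2 of these markers. With at least 500 counts, added after the values were seen, it was 27 and 1, and the medians of receptors and signaling and of ubiquitin-pathway enzymes became 1.07 and 0.97.

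List medians moved beyond the interval of the median in few other cases. That interval reflects the spread between the genes of a list and holds no counting error. The GTPases had 1.51 with at least 2 genes held. Chemokine receptors and integrins had 0.0028 with at least 2, -0.28 with at least 4 and -0.29 without the 1020 cells. T cell identity and cytokine receptors had -0.24 and -0.34 with at least 4. Central memory and inhibitory receptor lists had 0.049 and 0.82 without the 1020 cells. Ribosomal protein genes had -0.088 with at least 2 genes held, -0.15 chosen after thinning, -0.026 with size factors, -0.079 with totals without interferon-induced genes and -0.12 with depth reweighted. Without responding cells, lymph node over liver had 0.59. Of the genes named, 6 that were lower turned over on the log2 scale. Pmaip1 went to 0.0064 with at least 2 genes held, and Ccl1 to 0.033 without its richest cell. Without the 38 cells with 2 or more cycling markers, 2810417H13Rik went to 0.55. Without the 1020 cells, 2810417H13Rik, Rrm2, Prf1 and Hist1h2ap went to 3.33, 3.91, 0.39 and 0.16. The last values of Rrm2 and 2810417H13Rik come from 0 counts in the responding cells, set at 3, and give no fold. The causes were not tested. Genes under 100 counts, and values from fewer than 10 counts in 140 cells, are too shallow for a direction.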

Other observations

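Genes of cell death gave mixed values in the responding lymph node cells. Pmaip1, which encodes the pro-death protein Noxa, had 5 counts in responding and 115 in other cells (ratio 0.42, 0.13 to 0.998), and Bax stood at 189 CPM in responding and 210 CPM in other cells (0.90, 0.71 to 1.13). The inflammatory protease gene Casp1 was 1.59-fold higher (1.23 to 2.04), at 175 CPM in responding and 110 CPM in other cells. Perforin, the gene Prf1, had 3 counts in responding and 72 in other cells, too few to read a direction. Among heat shock genes, the endoplasmic reticulum chaperone gene Hspa5 stood at 652 CPM in responding and 423 CPM in other cells, 1.54-fold higher (1.36 to 1.75), while Hsp90b1 of the same compartment stood at 319 and 351 CPM (0.91, 0.76 to 1.08). Several genes below the limit of 100 counts had most of their counts in the responding cells: the DNA-binding p200 gene Ifi204 had 31 counts in responding and 2 in other cells, the RNA sensor gene Ifih1 41 and 23, and Slfn5 56 and 26.

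In liver, Cxcl10 had 50 counts in the 22 responding cells and 26 in the other 534 cells. Ccr8 had 13 counts in responding and 104 in other lymph node cells, a ratio of 1.19 (0.62 to 2.13).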
